A study of Mus musculus with 2 samples.

Results

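The genes described here are 5 nuclear genes whose proteins work in mitochondria, Timm10b, Mrpl42, Mettl17, Ndufa7 and Glrx2, out of 170 genes in a deposited table of RNA recovered from mouse forebrain with the antibody BG4. They were chosen by name for that shared role from a table that already holds only genes higher with BG4, so the direction of their difference was fixed by the choice and was given no test. BG4 is an antibody fragment that recognises G-quadruplexes. The method was RNA immunoprecipitation followed by sequencing. The BG4 library came from RNA held by His-tagged BG4 and an antibody to the His tag on Protein G columns, and the IgG library came from the same kind of lysate with normal rabbit IgG as the control. There was 1 library of each, both of total RNA from forebrain, and the strain, genotype, age, sex and number of mice were not stated in the labels. No value below has a replicate, so differences have no replicate check, and the number of reads is unknown.

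A G-quadruplex forms when several runs of guanines in one strand pair side by side into flat layers that stack on each other. In RNA such folds are known mainly from untranslated regions of messengers, where they can affect translation and transport. Most mitochondrial proteins are encoded in the nucleus, translated in the cytosol and carried into the organelle by import machinery. Neurons depend strongly on mitochondrial respiration, and the mitochondrial ribosome makes a small set of core respiratory subunits that are joined to nuclear-encoded ones. The 5 genes stand at separate steps of this system. Timm10b encodes a small chaperone of the intermembrane space that helps to bring hydrophobic carrier proteins to the inner membrane. Mrpl42 encodes a protein of the large subunit of the mitochondrial ribosome, and Mettl17 a methyltransferase-like factor needed to assemble the small subunit. Ndufa7 encodes an accessory subunit of respiratory complex I, and Glrx2 a glutaredoxin that uses glutathione to control protein thiols in mitochondria.

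Because BG4 selects for folded guanine runs, the guanine-rich stretches of the annotated transcripts are shown first. The strict definition of a putative G-quadruplex asked for 4 runs, each of at least 3 guanines, separated by loops between 1 and 7 bases long, and 0 of the 5 genes met it on the longest annotated transcript. None of their 55 annotated transcripts held such a motif. With runs of 2 or more guanines all 5 genes held a motif, in 50 of the 55 transcripts. On the longest transcript, 20.3% of the other protein-coding rows and 19.0% of protein-coding genes not in the table met the strict definition. With runs of 2 or more these shares were 98.1% and 91.6%, so holding such a motif is usual. No share over the transcripts of other genes was computed. The sequences below are, for each gene, the motif of 2 or more guanines that the largest number of its transcripts carry. Capitals mark runs of 2 or more guanines, and all sequences run 5′ to 3′ in DNA letters as in GENCODE release M21, an annotation of the mm10 build.
Timm10b: GGacgctgaGGaGGaGG
Mrpl42: GGtGGtcGGtatataGG
Mettl17: GGactttGGGtctGGcactGG
Ndufa7: GGccctGGtgtcaGGcaaGG
Glrx2: GGctgtGGagttGGatatgctGG

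The Timm10b motif was in 6 of 11 transcripts and crossed an exon junction (plus strand, chr7:105640845-105641031 from its first to its last base). Another 3 Timm10b transcripts held a nearly identical motif that began at the same base and stayed within its exon (chr7:105640845-105640861). The Mrpl42 motif was in 3 of 5 transcripts, in the 3′ UTR (minus strand, chr10:95480831-95480847). The Mettl17 motif was in 12 of 16 transcripts, within coding sequence in some and outside it in others (plus strand, chr14:51888014-51888034). The same held for the Ndufa7 motif, in 8 of 10 transcripts (plus strand, chr17:33829787-33829806), and for the Glrx2 motif, in 9 of 13 (plus strand, chr1:143745148-143745170). In all 5 genes the most widely shared motif was thus missing from part of the transcripts, and the table does not say which transcripts were recovered.

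Longer loops added a few stretches built on runs of 3 guanines. With loops of up to 12 bases, Timm10b and Glrx2 each had 1 motif in the longest transcript. The Timm10b stretch lay in a 3′ UTR carried by 1 transcript (plus strand, chr7:105641916-105641942).
Timm10b, loops to 12: GGGagaGGGagatGGtgttaGGGaGGG
The Glrx2 stretch was 36 bases long, in a transcript with a retained intron and no coding part (plus strand, chr1:143716629-143716664). Glrx2 was the gene with the most sites of 2 or more guanines, 20 distinct sites over its transcripts. There were 11 in Mettl17, 10 in Timm10b, 7 in Mrpl42 and 5 in Ndufa7. These counts were not scaled to the length or number of transcripts, and splice variants of the same stretch count separately. Per kilobase of the longest transcript, Glrx2 (2.05) was below Mettl17 (2.64). Of the Glrx2 sites, 4 stood side by side within 75 bases of 1 exon that is coding in some of the 6 transcripts that hold it (plus strand, chr1:143739678-143739752), and they are shown as the densest guanine-rich coding stretch seen among the 5 genes.
Glrx2, site 1: GGcttcGGtGGGGaGG
Glrx2, site 2: GGctGGtGGcgagcGGG
Glrx2, site 3: GGatcttGGcGGGGcGG
Glrx2, site 4: GGcgcGGctGGagctgcGGG

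A score that needs no fixed motif was computed as well. G4Hunter gives each guanine the length of its run, up to 4, and each cytosine the same with a minus sign, and was averaged over windows of 25 bases. The highest window over all transcripts of each gene is shown.
Mettl17, score 2.04: tgatttctctGGGGGGGGGGGGaGG
Mrpl42, score 1.68: tgtGGGGGGGaccttaGGGGaaatg
Timm10b, score 1.64: GGGGaccGGGaaGGaaGGaGGcGGG
Ndufa7, score 1.64: tagtctttGGGGGtGGGGagaaaGG
Glrx2, score 1.56: GGGGaGGcGGctGGtGGcgagcGGG

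The Mettl17, Mrpl42 and Ndufa7 windows were in transcripts without an annotated coding part (chr14:51892869-51892893, chr10:95491255-95491279 and chr17:33829177-33829201). The Timm10b window was in a 3′ UTR (chr7:105640955-105640979), and only that of Glrx2 lay in coding sequence (chr1:143739687-143739711). The highest windows of 4 of the 5 genes were thus not in annotated coding sequence, but only that of Timm10b was in an untranslated region of a coding transcript.

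The values in the 2 libraries were all higher with BG4, as in every row of the table, and all were modest. They are given as FPKM, fragments per unit of transcript length and of sequencing depth, a unit read from the layout of the table since its header names none. On this per-length scale the BG4 levels ordered the genes as Mettl17, Mrpl42, Glrx2, Ndufa7 and Timm10b. With 1 library each, neighbours in this order could not be told apart from each other. None of the 5 reached 10 FPKM in BG4, against 41.2% of all 170 genes.

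For protein import, Timm10b had 4.26 FPKM in BG4 and 2.49e-05 FPKM in IgG. The IgG value was the lowest of the table and effectively 0, so no fold was computed. With a pseudocount of 1 FPKM added to both values, the log2 ratio of BG4 over IgG was 2.40. By BG4 level Timm10b stood at rank 153 of 170, close to the low edge of the table, whose lowest BG4 value was 3.76 FPKM.

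For the mitochondrial ribosome, Mrpl42 had 7.84 FPKM in BG4 against 0.0718 FPKM in IgG, which is a 109-fold difference and a log2 ratio of 3.04 with the pseudocount. Mettl17 had 9.04 FPKM in BG4 against 0.0626 FPKM in IgG, which is a 144-fold difference and a log2 ratio of 3.24. A structural protein of one ribosomal subunit and an assembly factor of the other thus had similar levels in each library. Mettl17 was 1.15 times Mrpl42 in BG4 and 0.872 times it in IgG, and without replicates these small gaps cannot be read as differences.

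For respiration, Ndufa7 had 4.38 FPKM in BG4 and 0.0370 FPKM in IgG, which is a 118-fold difference and a log2 ratio of 2.37. Its BG4 level was near that of Timm10b, 1.03 times as high, and its fold was near those of Mrpl42 and Mettl17. For thiol control, Glrx2 had 5.16 FPKM in BG4 and 0.501 FPKM in IgG, which is a 10.3-fold difference and a log2 ratio of 2.04. Glrx2 was thus the gene with the most signal in the control: its IgG level was 6.98 times that of Mrpl42 and 13.5 times that of Ndufa7, while its BG4 level lay between theirs.

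**Figure D1:**
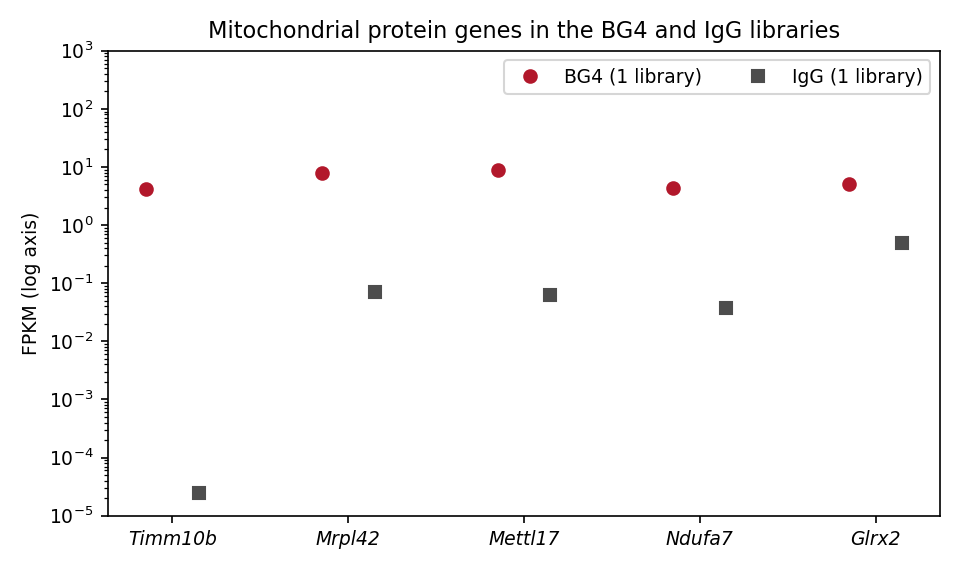
FPKM on a log axis for the 5 mitochondrial protein genes, with the single BG4 library as red circles and the single IgG library as grey squares. BG4 values lie between 4.26 and 9.04 FPKM, while IgG values run from 2.49e-05 FPKM for Timm10b to 0.501 FPKM for Glrx2.

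On a log scale the 5 genes therefore spread more widely in the control, while in FPKM they spread more widely in BG4. BG4 values spanned 4.26 to 9.04 FPKM and IgG values 2.49e-05 to 0.501 FPKM. With 1 library and unknown depth, the precision of the low IgG values is unknown. In IgG, 4 of the 5 were under 0.1 FPKM, against 38.2% of the table, and all 5 were under 1 FPKM, against 90.0%. The median level of the 5 genes was 5.16 FPKM in BG4 and 0.0626 FPKM in IgG, and that of the other 165 rows was 8.11 FPKM in BG4 and 0.149 FPKM in IgG. These are descriptions of a small group picked by name, and nothing particular to mitochondrial genes follows from them.

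**Figure D2:**
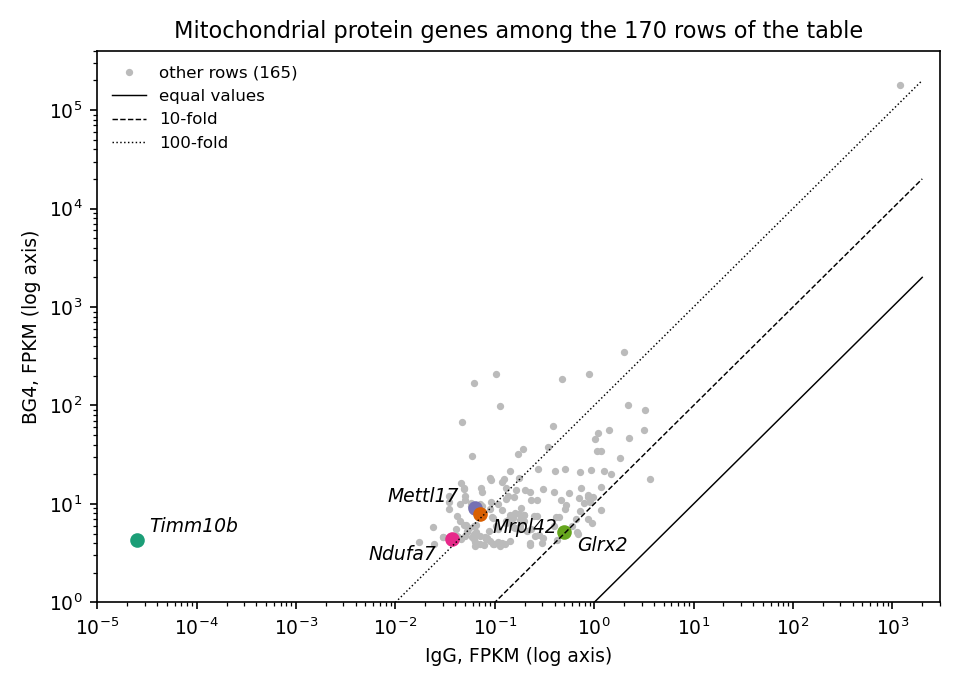
IgG level (x axis) against BG4 level (y axis), both in FPKM on log axes, for the 5 mitochondrial protein genes in colour and the other 165 rows in grey, with lines for equal values, 10-fold and 100-fold. Mrpl42, Mettl17 and Ndufa7 lie on or above the 100-fold line, Glrx2 lies at the 10-fold line, and Timm10b stands alone at the left.

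All 5 genes were above a 2-fold ratio with the pseudocount of 1 FPKM, as was 100.0% of the table, and all 5 were above 4-fold, against 96.5%. Those counts are near the shares of the table, which holds only genes higher with BG4. Among the 4 genes with a usable fold, 3 were at 100-fold or more without a pseudocount, namely Mrpl42, Mettl17 and Ndufa7, against 32.0% of the 169 rows with a usable fold. All 4 were at 10-fold or more, against 96.4%. After each library was divided by its own median over the table, with 1 library median as the pseudocount, 0 of the 5 genes were above 2-fold, against 10% of all rows. The medians come from rows that were all higher in BG4, so this scale sets a gene against the typical row of the table. It does not show which library was higher. On that scale Glrx2 stood at -1.44, lower by more than 2-fold as were 17.1% of all rows, though its own BG4 value was the higher one. The other 4 genes stood between 0.31 and 0.62. That pseudocount stands for 7.88 FPKM in BG4 and 0.143 FPKM in IgG, and the count rests on it: with the same division and no pseudocount, 2 of the 4 genes with a usable fold were above 2-fold, Mettl17 (2.62-fold) and Ndufa7 (2.15-fold), against 27.2% of rows. Mrpl42 was at 1.98-fold and Glrx2 at 0.187-fold on that scale.

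Where the 5 genes stood in the table depended on the pseudocount. With 1 FPKM, the median log2 ratio was 2.40 in the 5 genes and 2.87 in the other rows, so the group lay lower. With 0.1 FPKM the medians were 5.45 in the 5 genes and 4.94 in the other rows, so the group lay higher. Without a pseudocount the 4 genes with a usable fold had a median of 6.83, against 5.75 in the other rows. Ndufa7 moved most in rank by this choice among the 4, as it stood at rank 135 of 170 with 1 FPKM, 78 with 0.1 FPKM and 43 of 169 with none. Glrx2 stayed low at ranks 162, 163 and 161. The pseudocount of 1 FPKM outweighs IgG values far below it, which is the case for 4 of the 5 genes.

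**Figure D3:**
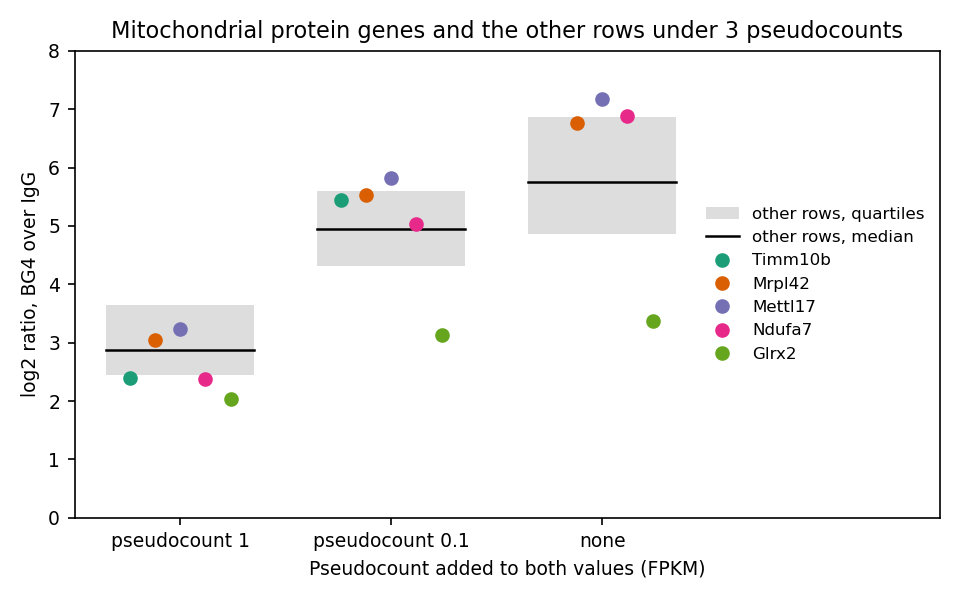
Log2 ratio of BG4 over IgG (y axis) for each mitochondrial protein gene under pseudocounts of 1 and 0.1 FPKM and none, with the quartiles (grey box) and median (black line) of the other 165 rows. Mrpl42 and Mettl17 lie above the median line in each setting, Glrx2 lies below the grey box in each, and Timm10b has no value without a pseudocount.

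In the authors' deposited table, Mettl17 was the one gene of the 5 with a q under 0.05, against 8.24% of the table. Its p in the authors' deposited table was 0.0001 and its q 0.0118, and only 3 rows, itself included, had a p this low. For the other 4 the authors' deposited table gave p from 0.0203 for Timm10b to 0.0388 for Ndufa7 and q from 0.225 to 0.303. That order did not follow the fold: Mrpl42, whose level and fold were close to those of Mettl17, had p = 0.0347 and q = 0.287 in the authors' deposited table. With 1 library per antibody this test compares 2 libraries and not the antibodies. All 170 rows had a p of 0.0487 or less in that test, with a median of 0.0156. A p under 0.05 thus does not set any of the 5 genes apart from the other rows.

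Over 2 libraries, likeness to another gene can only mean a near fold or level. The fold of Mrpl42 was shared with 2 rows to within 0.001 on the log2 scale. These were Fam114a2, with 4.63 FPKM in BG4 and 0.0424 FPKM in IgG, and Ankrd12, an ankyrin-repeat protein, with 37.5 FPKM in BG4 and 0.343 FPKM in IgG. No other gene of the 5 had a match that close. The nearest folds were those of Zfp280d (145-fold) and Adsl, an enzyme of purine synthesis (148-fold), for Mettl17. For Ndufa7 they were those of the nuclear pore protein Nup85 (117-fold) and of the collagen Col23a1 (114-fold), and for Glrx2 those of the anion exchanger Slc4a2 and of the histone demethylase Kdm1a, both 10.1-fold. By BG4 level alone, Kdm1a (4.27 FPKM) and the ephrin receptor Epha2 (4.24 FPKM) were nearest to Timm10b.

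The deposited loci and the annotated exons were compared to find neighbouring genes that overlap the 5 genes. The span of a locus does not by itself say which reads were counted for a gene. Gene bounds and exons here are those of GENCODE release M21, where 0 of the 5 identifiers had the deposited version. The gene models behind the deposited values may therefore differ. For Glrx2 (ENSMUSG00000018196.14, chr1:143716338-143749676, plus strand) the locus equalled the annotated gene. For Mrpl42 (ENSMUSG00000062981.4, chr10:95480806-95501927, minus strand) and Ndufa7 (ENSMUSG00000041881.8, chr17:33824591-33838316, plus strand) it differed by fewer than 20 bases at each end, and no other annotated gene lay inside. For Mettl17 (ENSMUSG00000004561.10, chr14:51884842-51896745, plus strand) the locus ran 3706 bases past the annotated end and stopped at the end of Slc39a2, a zinc transporter gene on the same strand, whose exons shared 151 bases with those of Mettl17. The Mettl17 window with 12 guanines in a row, shown above, ended 5 bases inside the annotated start of Slc39a2.

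Timm10b (ENSMUSG00000089847.3, chr7:105634203-105721799, plus strand) was the extreme case by span of the locus. Its locus was 87597 bases long, 24.5 times the annotated gene of 3582 bases, the highest such ratio of the 170 rows. It ran from the 3′ end of Arfip2, a membrane-curvature protein encoded on the opposite strand, to the 3′ end of Dnhd1, a dynein heavy chain-like gene. Exons of Timm10b shared 277 bases with Arfip2, 376 bases with the same-strand gene Gm45799 and 139 bases with the small nucleolar RNA Gm22504 on the opposite strand, and 0 with Dnhd1. Reads from the exon bases shared on the same strand, with Slc39a2 for Mettl17 and Gm45799 for Timm10b, cannot be told apart whether or not strand was used. The labels do not say whether it was used, so the opposite-strand overlaps of Timm10b may add to this. The values of Timm10b and Mettl17, the IgG value of Timm10b included, may be affected by these overlaps. Whether they are was not tested.

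**Figure D4:**
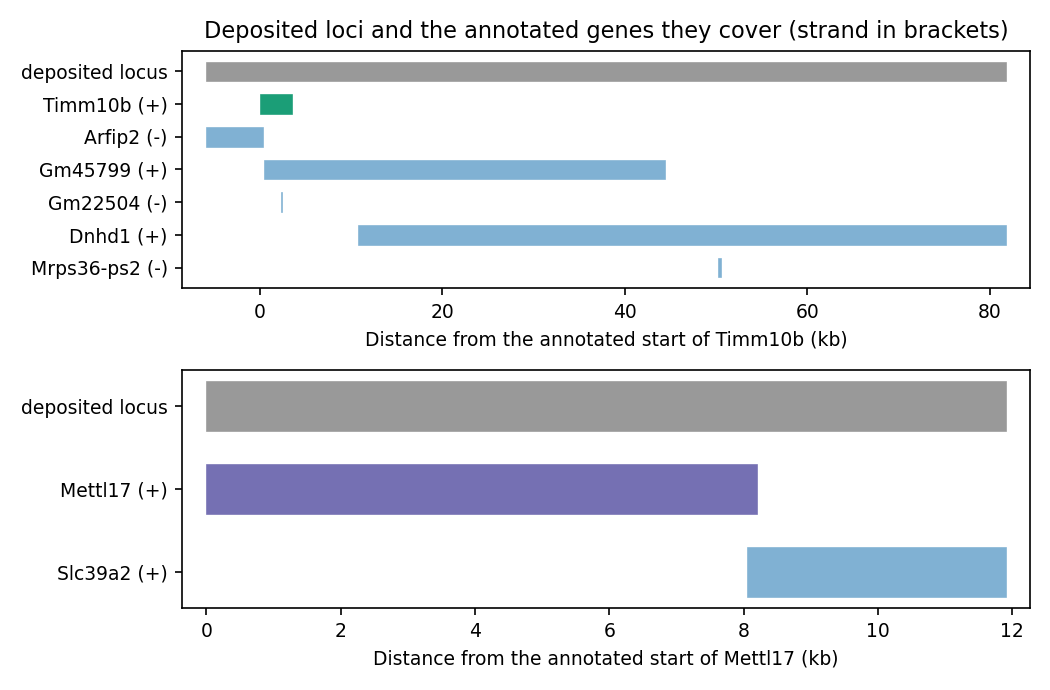
Deposited locus (grey), the annotated gene and its neighbours (blue) for Timm10b (top) and Mettl17 (bottom), in kilobases from the annotated start of each gene, with strand in brackets. The Timm10b locus covers Arfip2, Gm45799 and Dnhd1 as well, and the Mettl17 locus covers Slc39a2.

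Properties of the annotated transcripts were not used in choosing the genes. On the longest annotated transcript, 0 of 5 held a motif of 3 or more guanines, against 20.3% of the other 158 protein-coding rows and 18.96% of 21788 protein-coding genes not in the table. Over any annotated transcript it was 0 of 5, against 34.8% and 25.1%, with a median of 11 annotated transcripts in the 5 genes, 9 in the other rows and 3 in the genes not in the table. With loops to 12 bases it was 2 of 5, against 42.4% and 31.7%, and with runs of 2 or more guanines 5 of 5, against 98.1% and 91.6%. A group of 5 is too small for these shares to set it apart from the rest.

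Motifs of 2 or more guanines ran from 1.56 per kilobase in Ndufa7 to 2.64 in Mettl17. The median of the 5 genes was 1.83 per kilobase, that of the other protein-coding rows was 2.50 and that of the genes not in the table was 1.95. On the longest coding transcript the order differed, with 3.79 per kilobase in Ndufa7, the highest of the 5 and above the median of the other rows (2.66), and 1.85 in Mettl17. On the longest annotated transcript, GC content ran from 43.2% in Mrpl42 to 50.2% in Mettl17, so that all 5 lay under the median of the other rows, 51.3%. On the longest coding transcript that did not hold, since there Ndufa7 (55.3%) and Mettl17 (53.4%) were above the median of the other rows, 51.9%, and Glrx2 was the lowest of the 5 (42.0%). For Mrpl42, Mettl17, Ndufa7 and Glrx2 the longest transcript was one with a retained intron.

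**Figure D5:**
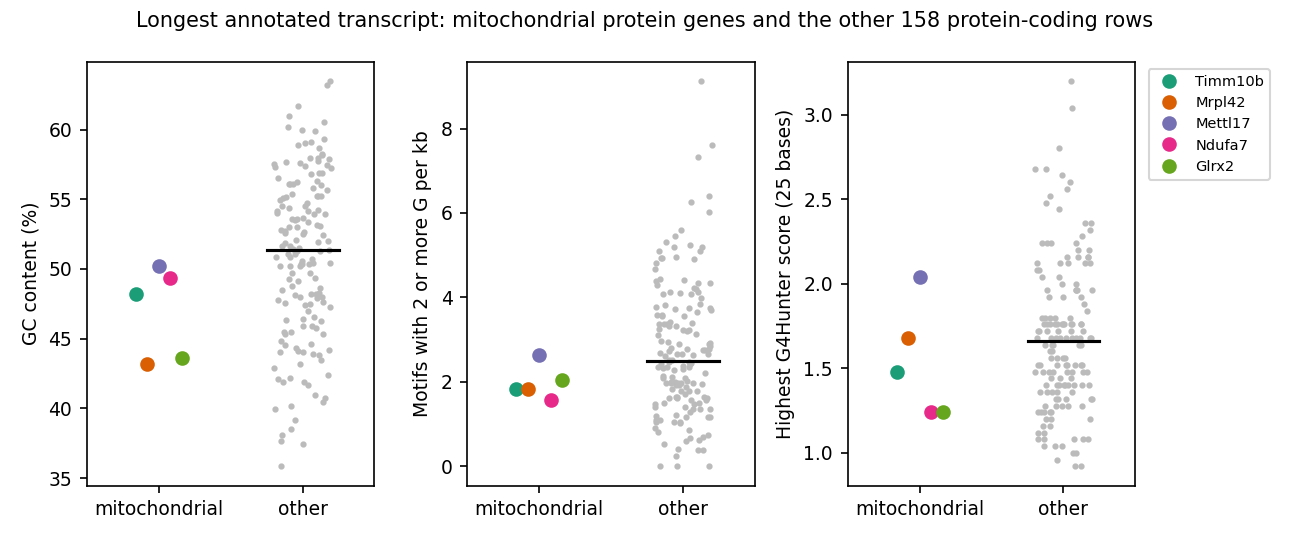
GC content, motifs with 2 or more guanines per kilobase and highest G4Hunter score on the longest annotated transcript, for the 5 mitochondrial protein genes in colour (left in each panel) and the other 158 protein-coding rows in grey with their median as a line. All 5 genes lie under the median GC content of 51.3%, and Mettl17 has the highest value of the 5 in each panel.

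On the longest annotated transcript the highest G4Hunter score was 2.04 in Mettl17 and 1.68 in Mrpl42, both above the median of the other rows, 1.66. It was 1.48 in Timm10b and 1.24 in both Ndufa7 and Glrx2, under that median. On the longest coding transcript the score was 1.48 in Timm10b, 1.28 in Glrx2, 1 in Mettl17, 0.80 in Ndufa7 and 0.64 in Mrpl42. On that transcript all 5 lay under the median of the other rows, 1.68, and 4 lay under that of the genes not in the table (1.44). There no protein-coding row of the table was below Mrpl42, and 1.46% of protein-coding genes were, so the place of Mrpl42 and Mettl17 depended on the transcript chosen. The coding transcripts of Mrpl42 and Ndufa7 were short, 666 and 528 bases, against a median of 3586 bases in the other rows, and a short transcript offers fewer windows. The part of length in these scores was not tested.

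Other genes of the same pathways were looked up from lists. Of 37 genes of mitochondrial protein import, 83 mitochondrial ribosomal proteins, 37 factors of mitochondrial ribosome assembly and translation, 36 subunits of complex I and 14 genes of mitochondrial thiol control, each group had 1 gene in the table, the one already described. It held 0 of 14 assembly factors of complex I, 0 of 43 genes of the other respiratory complexes and 0 of 15 genes of the mitochondrial genome. The annotation held 36 of the 37 factors of ribosome assembly and translation and 42 of the 43 genes of the other complexes. The other genes of these lists were not in the table, which gives no level for them because the table is a selection. The tissue label could not be checked for the same reason, with 0 of 23 markers of forebrain neurons and other brain cells in the table.

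Further genes outside the lists also act in mitochondria, and 3 of them were named after their values were seen. Polrmt, the RNA polymerase of mitochondria, had 14.1 FPKM in BG4 and 0.0488 FPKM in IgG, which is a 289-fold difference and a log2 ratio of 3.85 with the pseudocount of 1 FPKM. Uqcc1, an assembly factor of respiratory complex III, had 21.8 FPKM in BG4 and 0.405 FPKM in IgG, which is a 53.9-fold difference and a log2 ratio of 4.02. Acad10, of the acyl-CoA dehydrogenase family, had 8.50 FPKM in BG4 and 0.726 FPKM in IgG, which is an 11.7-fold difference and a log2 ratio of 2.46. Polrmt and Uqcc1 had higher BG4 levels than each of the 5 genes, and Acad10 had a lower one than Mettl17.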

How the data were processed

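RNA bound by BG4 and by normal rabbit IgG was measured in 1 library each from mouse forebrain. The authors deposited 1 table of 170 genes. Cufflinks and the build mm10 are named per the submitters' processing notes; not given in the sources used here were its version, the aligner, the annotation, strand handling and library scaling. The values per gene were taken as FPKM from the Cuffdiff-style columns of the deposited table, whose header names no unit. The deposited log2 values equalled the log2 of the FPKM to within 0.001 in both libraries. The deposited p-value and q-value come from the authors' own comparison, and why these 170 genes were listed is not stated. All 170 had a higher BG4 value and a p from 5e-05 to 0.0487 in that comparison. Depth is unknown, so no counting interval was computed.

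Log2 ratios used a pseudocount of 1 FPKM, which understates the difference of low genes. A minimum of 1 FPKM in a library was required, which all 5 genes met. A fold needed an IgG value of at least 0.001 FPKM. No test across libraries was possible. Identifiers were matched to GENCODE release M21 without their version (170 of 170), and 1 was added to deposited starts. With their version, 11 of 170 matched and 0 of the 5 members, so the authors' gene models may differ. Motifs and G4Hunter scores were computed on its transcripts, after a test on simulated data. The planted guanine runs stood in sequence without other guanines, so the test does not cover guanine-rich transcripts. Named genes were the 5 members, listed mitochondrial genes in the table, the 2 rows nearest in fold (or BG4 level, for Timm10b) and genes with overlapping exons. Members and lists were chosen with earlier results of these data known, and Mettl5 was taken off a list afterwards because its protein is not mitochondrial. Alternatives were other pseudocounts, filters, fold thresholds, division of each library by its median over the 170 rows, and motif definitions. Python 3.11.15, pandas 2.3.3, numpy 2.4.6 and matplotlib 3.10.9 were used.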

Additional observations from a re-analysis of the deposited data

How the results depend on the processing

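Without replicates, changes of more than 1.5-fold are listed. For the 5 genes the median log2 ratio was 2.40, and it was 5.45 with a pseudocount of 0.1 FPKM, 6.83 with none and Timm10b left out, and 0.41 after each library was divided by its median over the table. Each of the 5 genes changed by more than that under every one of these settings that gave a value, and Timm10b has none without a pseudocount. After division by the library medians, Glrx2 turned to -1.44 and the other 4 stayed positive. Those medians are over rows all higher in BG4, so the negative value places Glrx2 under the typical row and not under IgG. The count of 5 genes above 2-fold was 0 with at least 10 FPKM required, since none reached it, 0 after division by the medians with 1 median as the pseudocount, and 2 of the 4 genes with a usable fold after that division with no pseudocount. It was 5 with no filter and at 4-fold. The count of 0 genes with a motif of 3 or more guanines was 0 in any transcript or in the longest coding one. It became 5 with 2 or more guanines and 2 with loops to 12 bases. In the longest coding transcript it was 5 with 2 or more guanines and 1 with loops to 12. On that transcript the strict definition was met by 21.5% of the other protein-coding rows and 17.7% of protein-coding genes not in the table. With 2 or more guanines these shares were 99.4% and 91.3%, and with loops to 12 they were 43.0% and 30.1%. The longest coding transcript, the median-divided group median and the median-divided count with no pseudocount were chosen after seeing the data. No paired analysis was possible because each antibody had 1 library. Unknown depth leaves the precision of the low IgG values unknown.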
